A study of Bos taurus with 8 samples.

Results

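Neurotensin (NTS), the muscarinic acetylcholine receptor gene CHRM4, the regulator of G protein signaling RGS3 and the G protein-regulated inducer of neurite outgrowth GPRIN3 are 4 genes linked by heterotrimeric G protein signaling. They were chosen by name from the genes that the authors had listed as changed by LIF in choroidal endothelial cells, so the LIF comparison in those cells was the basis of the choice. All 4 were found among the 25889 rows of the count table, under the identifiers ENSBTAG00000005305 (NTS), ENSBTAG00000033699 (CHRM4), ENSBTAG00000004499 (RGS3) and ENSBTAG00000045966 (GPRIN3). The symbols came from the authors' protein similarity search.

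G protein-coupled receptors sense ligands outside the cell and switch on G proteins inside it by letting their alpha subunit exchange GDP for GTP. Neurotensin is a secreted peptide, cut from a precursor that also holds neuromedin N, and is known from neurons and from endocrine cells of the gut; its receptors are G protein-coupled receptors and the sorting receptor sortilin. CHRM4 encodes a receptor for acetylcholine that couples to inhibitory G proteins and lowers adenylyl cyclase activity. RGS proteins such as RGS3 end the signal by speeding up GTP hydrolysis on the alpha subunit. GPRIN proteins bind activated alpha subunits of the inhibitory class and were named for their role in neurite outgrowth. LIF, a cytokine of the interleukin-6 family, does not itself act on a G protein-coupled receptor but on gp130 and LIFR, which signal through JAK kinases and STAT3.

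The RNA came from cultured bovine endothelial cells of the choroid (BCE) and of the aorta (BAE), each given 10 ng/ml LIF or vehicle (BSA in PBS) for 6 h, in 4 groups of 2 libraries. For 3 h before and then during treatment, BCE cells were in assay medium with 10% bovine calf serum and BAE cells in medium with 1%. BCE cells had been maintained on fibronectin with bFGF and VEGF, and BAE cells without these factors, so cell type and medium cannot be told apart. Both were commercial cells, and the study names 1 supplier and 1 catalog number for each. It gives 1 lot for BAE cells, no lot for BCE cells, and no donors. Tests between the cell types therefore compare these cultures and cannot be carried over to choroidal and aortic endothelium at large.

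The libraries held from 18600598 to 35269335 counts, and 3 counts corresponded to between 0.0873 and 0.156 CPM (counts relative to the library size after TMM scaling). STAT3 and SOCS3, the targets of LIF signaling that could be matched by name, rose after LIF in BAE cells, with log2 fold changes of 0.99 (adjusted p = 3.88e-11) and 3.44 (adjusted p = 1.01e-13, both from edgeR's quasi-likelihood test). In BCE cells the log2 fold changes were smaller, at 0.63 for STAT3 and 1.21 for SOCS3. The differences of the LIF effects (BCE minus BAE) were -0.33 and -2.21. These BCE values are given without a test, because the names came from the authors' lists of genes changed in BCE cells. Identity of the cells could not be checked, because 0 of the 53 marker genes of endothelial, mural, fibroblast, neural, pigment and blood cells could be matched to an identifier here. For the same reason 0 of 134 further genes of the pathway, among them the neurotensin receptors, the other muscarinic receptors, the other RGS and GPRIN proteins and the G protein subunits, could be followed.

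The ligand gene of the set, NTS, was read at high depth in every library. In vehicle-treated BAE cells it stood at 112 and 111 CPM (3862 and 2414 counts), and in LIF-treated BAE cells at 135 and 141 CPM (2827 and 3641 counts). In vehicle-treated BCE cells it stood at 37.4 and 37.1 CPM (1113 and 895 counts), and in LIF-treated BCE cells at 48.9 and 57.1 CPM (1263 and 1098 counts). Both BAE groups lay above both BCE groups, and within each cell type both LIF libraries lay above both vehicle libraries. Such separation was common over all genes tested. It held for 59.4% of them after LIF in BAE cells, 39.9% after LIF in BCE cells and 77.3% between vehicle-treated cell types. The means with vehicle were 111 ± 1.27 CPM in BAE and 37.3 ± 0.204 CPM in BCE cells (SD, n = 2). After LIF they were 138 ± 4.49 CPM in BAE and 53 ± 5.76 CPM in BCE cells (SD, n = 2). With 2 libraries a group, these SDs cannot show whether the spread differed with treatment.

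CHRM4, the receptor gene of the set, had low counts throughout. It stood at 1.69 and 1.74 CPM in vehicle-treated BAE cells (58 and 38 counts) and at 2.77 and 3.26 CPM after LIF (58 and 84 counts). In BCE cells it stood at 2.35 and 1.82 CPM with vehicle (70 and 44 counts) and at 7.16 and 6.03 CPM after LIF (185 and 116 counts). The LIF-treated BCE libraries were the highest of the 8, and the LIF-treated BAE libraries came next. Over all genes tested, LIF and vehicle groups were free of overlap in 59.4% in BAE cells and in 39.9% in BCE cells. The group means were 1.71 ± 0.0374 and 3.02 ± 0.347 CPM in BAE cells and 2.09 ± 0.373 and 6.60 ± 0.803 CPM in BCE cells, with vehicle and LIF in that order (SD, n = 2). At this depth counting error alone was wide: the exact Poisson 95% interval ran from 1.33 to 2.45 CPM for the second vehicle-treated BCE library and from 1.23 to 2.39 CPM for the second vehicle-treated BAE library. These intervals cover counting error only.

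RGS3, which shortens the signal of such receptors, was high in both cell types but moved in opposite ways after LIF. It stood at 206 and 211 CPM in vehicle-treated BAE cells (7087 and 4602 counts) and at 180 and 188 CPM after LIF (3763 and 4847 counts). In BCE cells it stood at 94.9 and 106 CPM with vehicle (2824 and 2567 counts) and at 122 and 127 CPM after LIF (3161 and 2453 counts). In BAE cells both LIF libraries therefore lay below both vehicle libraries, and in BCE cells both lay above. By group mean the order from high to low was vehicle-treated BAE, LIF-treated BAE, LIF-treated BCE and vehicle-treated BCE cells. The means were 208 ± 3.23, 184 ± 5.99, 125 ± 3.58 and 101 ± 8.16 CPM (SD, n = 2). LIF and vehicle groups were also free of overlap in 59.4% of all genes tested in BAE cells and in 39.9% in BCE cells.

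GPRIN3, whose product binds active G protein alpha subunits, was found mainly in BCE cells. It stood at 5.17 and 5.43 CPM in vehicle-treated BCE cells (154 and 131 counts) and at 2.40 and 2.75 CPM after LIF (62 and 53 counts). In BAE cells it was close to the limit of detection, with 13 and 4 counts in the vehicle-treated libraries (0.378 and 0.183 CPM) and 6 and 4 counts in the LIF-treated libraries (0.286 and 0.155 CPM). The BAE groups overlapped, at 0.281 ± 0.138 and 0.221 ± 0.0928 CPM, and each BAE library lay below every BCE library. Vehicle-treated cell types were free of overlap in 77.3% of all genes tested, and the share for LIF-treated cell types was not counted. The BCE means were 5.30 ± 0.182 CPM with vehicle and 2.58 ± 0.25 CPM after LIF (SD, n = 2 in each group).

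**Figure D1:**
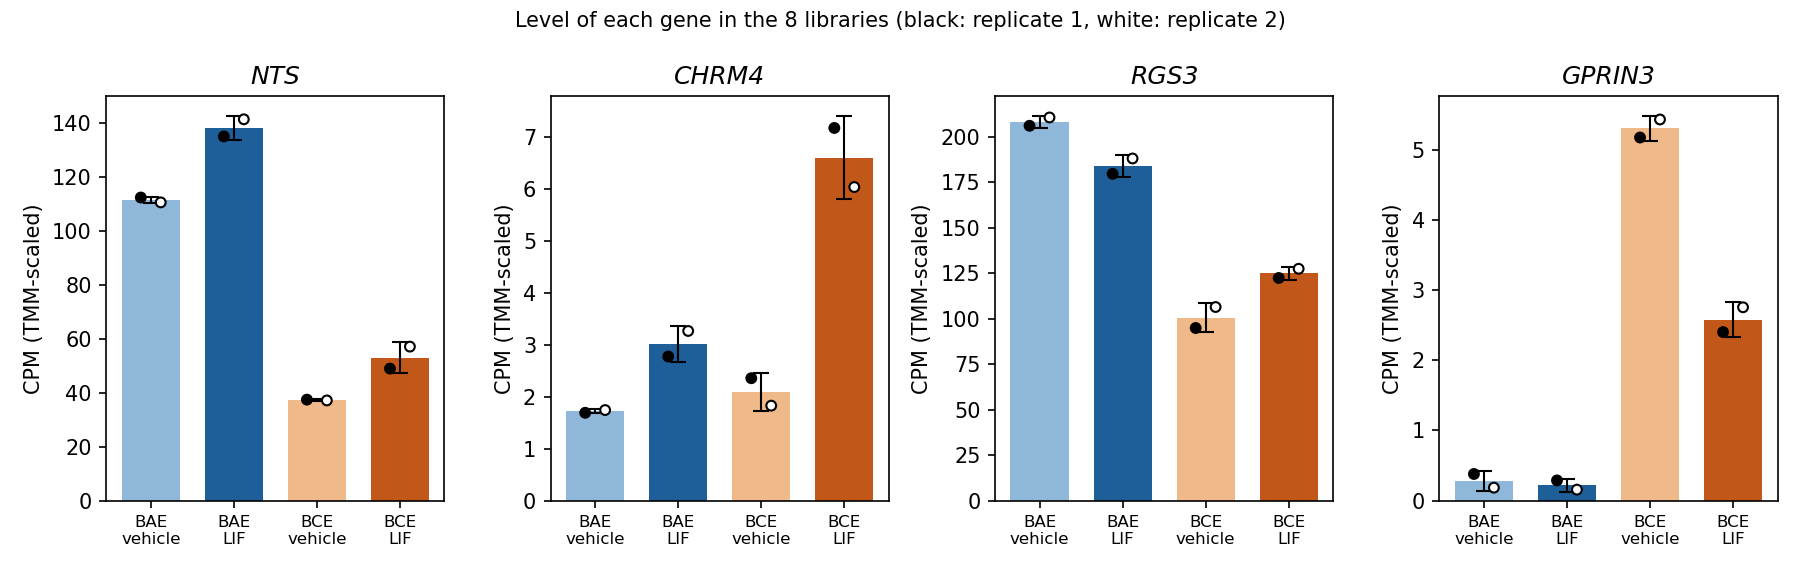
Level of NTS, CHRM4, RGS3 and GPRIN3 in CPM (TMM-scaled, linear axis from 0, one scale per gene) in vehicle- and LIF-treated BAE and BCE cells. Bars are means and error bars SDs of 2 libraries, and points are the libraries. NTS and RGS3 are higher in BAE cells, GPRIN3 is at most 0.378 CPM in a BAE library, and RGS3 is lower after LIF in BAE cells (208 to 184 CPM) and higher after LIF in BCE cells (101 to 125 CPM).

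In BCE cells the comparison of LIF with vehicle, which chose the 4 genes, is given as a description without a test. CHRM4 was higher by 1.65 on the log2 scale (standard error 0.202), or 3.14-fold, and 11 of the 13014 genes tested, itself included, had an increase of that size or more. GPRIN3 stood at -1.05 (standard error 0.187), with 58 genes, itself included, lowered as much or more. NTS was higher by 0.50 (standard error 0.0839), with 244 genes, itself included, raised as much or more. RGS3 was higher by 0.31 (standard error 0.0648), with 586 genes, itself included, raised as much or more. NTS, CHRM4 and RGS3 were higher after LIF and GPRIN3 was lower. Over all genes, 0.922% passed a threshold of 0.05 on the adjusted p in this comparison, and 39.9% had groups that did not overlap.

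In BAE cells, whose libraries were not in the comparison that chose the genes, LIF raised NTS and CHRM4 and lowered RGS3. The choice was, however, made with earlier results of these data known. The test was edgeR's quasi-likelihood test, adjusted over all genes tested, at the same threshold. NTS rose 1.27-fold, or by 0.34 on the log2 scale (standard error 0.0452, 95% interval 0.25 to 0.44, adjusted p = 3.12e-05, edgeR). CHRM4 rose 1.81-fold, or by 0.85 on the log2 scale (standard error 0.222, 95% interval 0.38 to 1.33, adjusted p = 0.0104, edgeR). RGS3 fell, and its log2 value was -0.15 (standard error 0.0429, 95% interval -0.24 to -0.06, adjusted p = 0.0202, edgeR). All 3 genes tested thus passed the threshold, 2 upward and 1 downward, where 13.6% of the 13034 genes rose and 8.55% fell. The groups were free of overlap in each of the 3, as in 59.4% of all genes tested. As to size, 1342 genes, NTS included, rose as much as NTS or more, and 300 rose as much as CHRM4 or more. The fall of RGS3 was small: 3097 genes, itself included, fell as much or more. The median absolute log2 fold change over all genes tested in BAE cells was 0.14, close to the size for RGS3.

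The calls for CHRM4 and RGS3 in BAE cells depended on the test and on single libraries. With DESeq2's test the adjusted p was 0.077 for CHRM4 and 0.0539 for RGS3. Without the first vehicle-treated or the second LIF-treated BAE library the edgeR adjusted p for CHRM4 was 0.0675 and 0.114, and without the second vehicle-treated or the first LIF-treated BAE library that for RGS3 was 0.0947 and 0.106. Both kept their direction in each of these fits, and NTS kept its call in every alternative fit, with adjusted p-values of at most 0.00212.

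GPRIN3 did not reach the minimum count in BAE cells and was not tested there. With TMM factors from the BAE libraries alone, the log2 ratio of its means was -0.31, which became 0.30 without the first vehicle-treated BAE library and 0.07 without the second LIF-treated one. The vehicle-treated BAE libraries together held 17 counts and the LIF-treated ones 10. Without the filter on low counts the fitted value was -0.42 (standard error 0.858, adjusted p = 0.803, edgeR), so a change in BAE cells of the size given for BCE cells was not detectable at this depth.

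**Figure D2:**
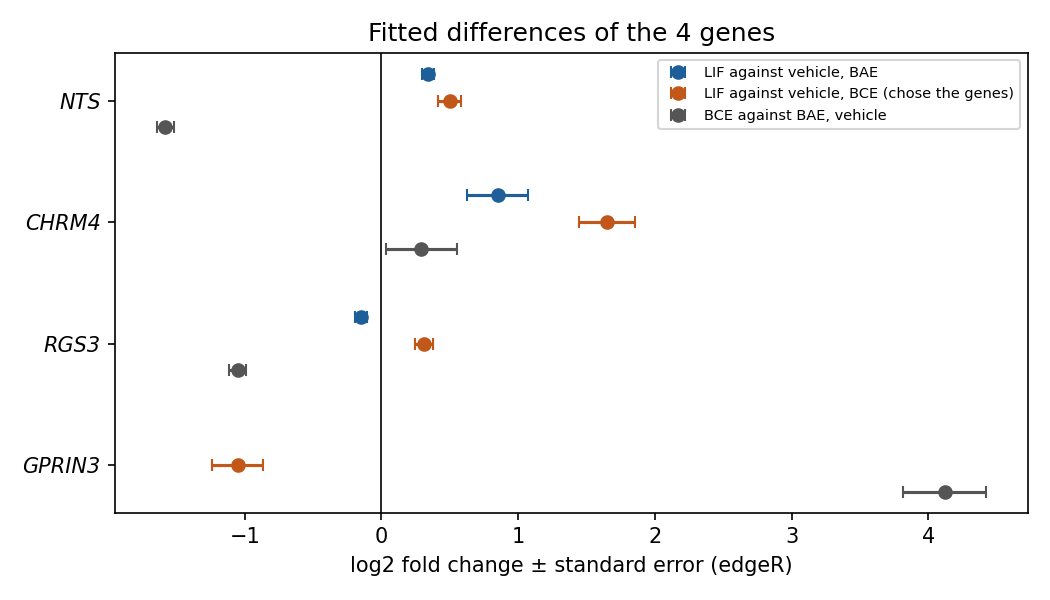
Log2 fold changes (x axis) of the 4 genes (y axis) with bars of 1 standard error, from edgeR fits of LIF against vehicle in BAE cells, LIF against vehicle in BCE cells and vehicle-treated BCE against BAE cells. GPRIN3 has no point for BAE cells, where it was not tested. The RGS3 points for LIF lie on opposite sides of 0, at -0.15 in BAE and 0.31 in BCE cells.

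The difference of the LIF effects (BCE minus BAE) contains the comparison that chose the genes, so it is given without a test. It was 0.49 on the log2 scale for RGS3 (standard error 0.0796), 0.83 for CHRM4 (standard error 0.299), 0.19 for NTS (standard error 0.0924) and -0.57 for GPRIN3 (standard error 0.613). The value for GPRIN3 was smaller than its standard error. NTS and CHRM4 were higher after LIF in both cell types, while the direction for RGS3 was upward in BCE and downward in BAE cells.

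**Figure D3:**
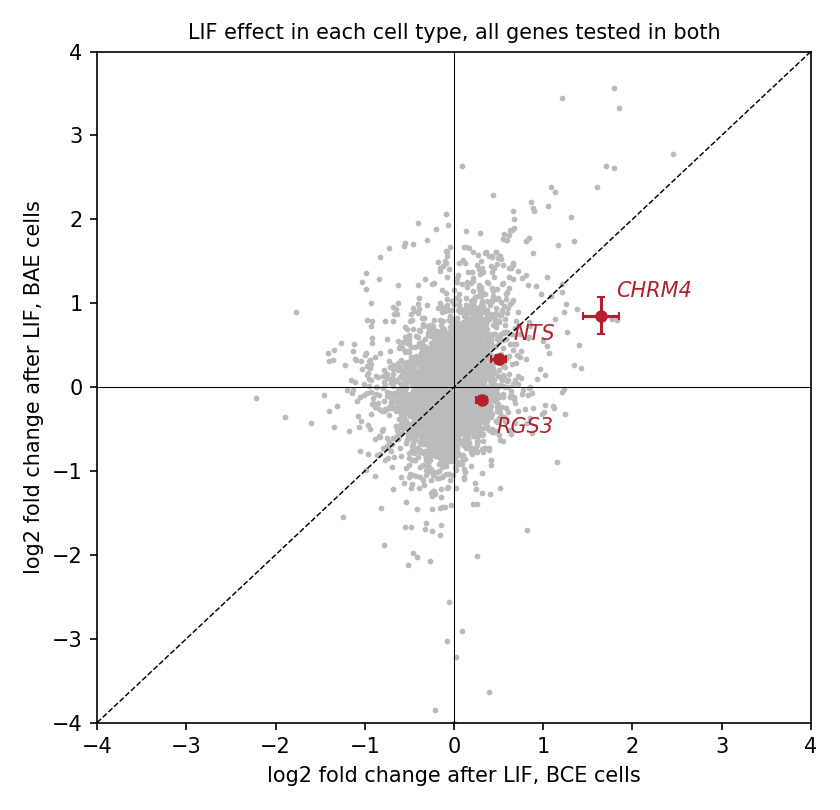
Log2 fold change after LIF in BCE cells (x axis) against BAE cells (y axis) for the 12457 genes tested in both (grey points, of which 5 lie outside the axes at ±4), with NTS, CHRM4 and RGS3 in red and bars of 1 standard error. The dashed line marks equal effects. All 3 lie below the line, and RGS3 is below 0 on the y axis. The x axis shows the comparison that chose the genes, which favors a place below the line for genes raised there. Their place relative to the line is therefore a description with no test.

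Without LIF, NTS and RGS3 were lower in BCE than in BAE cells, and GPRIN3 was read mainly in BCE cells. The vehicle-treated BCE libraries had also served in the comparison that chose the genes, and serum differed between the cell types. Choosing genes raised by LIF in BCE cells favors low values in these libraries, the direction seen for NTS and RGS3. Choosing a lowered gene favors high values, the direction seen for GPRIN3. The adjusted p-values for NTS, RGS3 and CHRM4 in this comparison are therefore not free of the choice. The log2 difference (BCE minus BAE) of NTS was -1.58 (standard error 0.0638, adjusted p = 1.16e-09, edgeR), a level 3.00-fold higher in BAE cells. That of RGS3 was -1.05 (standard error 0.0622, adjusted p = 3.76e-08, edgeR), 2.08-fold higher in BAE cells. GPRIN3 passed the filter on low counts only through the BCE libraries, where it is high, so its difference is given as a description with no test. The fitted value was 4.12 (standard error 0.303), against 13 and 4 counts in the vehicle-treated BAE libraries, and it moved to 4.81 without the first of these.

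CHRM4 did not pass the threshold between vehicle-treated BCE and BAE cells, and its log2 difference was 0.29 (standard error 0.26, 95% interval -0.28 to 0.86, adjusted p = 0.367, edgeR). Of the 3 genes with counts enough in both cell types, 2 were thus called, against 53.8% of all genes in this comparison, a share too close to read as a result about these genes. Groups that did not overlap were found for 77.3% of all genes. In bulk RNA a lower level can come from fewer expressing cells or from less RNA per cell, which cannot be told apart here.

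The ratios of mean CPM between the cell types with vehicle and after LIF are given side by side, with no test. RGS3 was 2.07-fold higher in BAE than in BCE cells with vehicle and 1.47-fold higher after LIF. NTS was 2.99-fold higher in BAE cells with vehicle and 2.61-fold higher after LIF. CHRM4 was 1.22-fold higher in BCE cells with vehicle and 2.19-fold higher after LIF. GPRIN3 was 18.9-fold higher in BCE cells with vehicle and 11.7-fold higher after LIF. The ratio was smaller after LIF for RGS3 and NTS and larger for CHRM4. For NTS the difference of LIF effects, 0.19, was 0.06 without the second LIF-treated BCE library. For GPRIN3 the BAE groups behind the ratios held only 17 and 10 counts, and its difference of -0.57, with a standard error of 0.613, was -0.12 without the first LIF-treated BAE library, so no change of its ratio can be read. In absolute terms NTS was higher after LIF by 26.7 CPM in BAE and 15.7 CPM in BCE cells. RGS3 was lower by 24.5 CPM in BAE cells (184 against 208 CPM) and higher by 24.3 CPM in BCE cells.

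Across the 8 libraries, NTS and RGS3 followed each other and ran against GPRIN3, a pattern set mostly by the split between cell types. The Pearson correlation of log2 CPM was 0.95 between NTS and RGS3, -0.98 between NTS and GPRIN3, and -0.97 between RGS3 and GPRIN3 (n = 8 libraries in 4 groups, a description with no test). CHRM4 stood apart, with correlations of -0.22 with NTS, -0.31 with RGS3 and 0.27 with GPRIN3.

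The genes most like each member were sought among the 110 other genes with a name, all of them from the authors' lists of genes changed by LIF in BCE cells. The closest to NTS were APBA1, LPCAT2 and ITGAV, with Pearson correlations of log2 CPM over the 8 libraries of 0.994, 0.992 and 0.991. The closest to RGS3 were NTS, APBA1 and ITGAV (0.95, 0.934 and 0.922). The closest to GPRIN3 were PLK2, CCL2 and SLCO2B1 (0.986, 0.986 and 0.980). Among the closest to CHRM4 were GRPEL2 and NEDD4L (0.894 and 0.888). By rank correlation the top 3 had 2 genes in common with these for GPRIN3 and 0 for NTS, CHRM4 and RGS3.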

How the data were processed

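Per the paper's methods and the submitters' processing notes, paired-end reads were aligned by the authors to the bovine assembly UMD 3.1 with TopHat2 (version 2.0.12) and Bowtie2 (version 2.2.3), and counted per gene with HTSeq (version 0.6.1). The authors deposited raw counts, one column per library. Strand use and the handling of reads with several matches are not given in the sources used here, so genes with overlapping or near-identical copies are uncertain. The other text used was a column of protein names in the authors' table for BCE cells; its fold changes, p-values and group means, made with DESeq, were not used. The table for BAE cells holds the same bytes and was not used. Names could be paired with 111 identifiers through that column and the authors' supplementary list.

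The analysis used edgeR (version 4.0.16; R version 4.3.3): filterByExpr (minimum count 10, minimum total 15), TMM scaling and the quasi-likelihood test with Benjamini-Hochberg adjustment, on the 4 libraries of each comparison, or all 8 for the difference of LIF effects. Standard errors came from each gene's F statistic. CPM used TMM factors from all 8 libraries, so ratios of mean CPM differ slightly from fitted fold changes. Scripts were tested on simulated data. Replicates are called biological in the methods; nothing more says how the cultures were separated. The members and gene lists were chosen with earlier results of these data known. Alternatives were DESeq2 (version 1.42.0) size factors, its test, other filters, a replicate block, one fit of all libraries and each library left out. Genes were named by rule: the 4 members, called genes of the fixed lists (none could be matched), and the 3 named genes with a mean of at least 1 CPM most like each member, of which 1 is not reported here. Genome positions and sequences were not analysed here.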

Additional observations from a re-analysis of the deposited data

Results flagged for a closer look

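RGS3 moved in opposite directions after LIF in the 2 cell types: both LIF-treated BCE libraries lay above both vehicle-treated ones, and both LIF-treated BAE libraries lay below both vehicle-treated ones. Groups were free of overlap in 39.9% of all genes tested in BCE cells and in 59.4% in BAE cells. The fall in BAE cells passed the threshold with edgeR (adjusted p = 0.0202), but not with DESeq2 (adjusted p = 0.0539), nor with edgeR without the second vehicle-treated (adjusted p = 0.0947) or the first LIF-treated BAE library (adjusted p = 0.106). Its log2 fold change there, -0.15, was close in size to the median absolute value of 0.14 over all genes tested in BAE cells. The difference of the LIF effects (BCE minus BAE) was 0.49 on the log2 scale. This difference was not tested, because the LIF comparison in BCE cells had chosen the gene. Groups of 2 libraries are too small to look for single outlying libraries.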

How the results depend on the processing

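With 2 libraries a group, each gene's spread is largely borrowed from other genes, and with a library left out the lone library is assumed to vary like the others. DESeq2's test moved the number of genes called in BAE cells from 2889 to 1920, and CHRM4 (0.85) and RGS3 (-0.15) then missed the threshold; DESeq2's size factors changed no call for the 4 genes. The number called after LIF in BCE cells, 120, became 437 with no filter, 226 with the replicate block and 217 in one fit of all libraries, and the number for the difference of LIF effects, 502, became 889 with no filter. The replicate block changed no call for the 4 genes. The replicate numbers of the sample titles, used for the block, differ from those in the sample descriptions. Deviations of same-numbered libraries had correlations of -0.02 in BAE and 0.10 in BCE cells. Values this close to 0 do not decide whether the libraries were paired. With each library left out, the number called ranged from 1807 to 2905 in BAE cells, from 55 to 1423 in BCE cells and from 261 to 948 for the difference. In BAE cells CHRM4 then ranged from 0.72 to 0.95, RGS3 from -0.19 to -0.13 and GPRIN3, untested, from -0.84 to 0.30. In BCE cells NTS ranged from 0.39 to 0.62 and GPRIN3 from -1.14 to -0.94. The difference of effects ranged from 0.06 to 0.29 for NTS, 0.64 to 1.02 for CHRM4, 0.40 to 0.55 for RGS3 and -1.27 to -0.12 for GPRIN3. Unscaled library totals gave mean levels within 3.97% of those reported, and the cause of each shift was not tested. A stricter threshold for the fixed lists was not run, since none could be matched. Of 166 values for the 4 genes under these alternatives, 146 kept their side of the threshold or moved less than the spread between replicates. The low counts of GPRIN3 in BAE cells and of CHRM4 limit what could be detected.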
